A study of Rattus norvegicus with 39 samples.

Results

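The genes described here are 28 nuclear genes whose proteins work in the mitochondrion: subunits and assembly factors of the respiratory chain, subunits of ATP synthase, enzymes of coenzyme Q synthesis and of the matrix, parts of the protein import machinery, and proteins of the mitochondrial ribosome. They were chosen by symbol, as every identifier with a family prefix (Nduf, Sdh, Uqc, Cox, Coq, Coa, Atp5, Mrpl, Mrps, Timm, Tomm, Chchd, Etf, Acad, Idh, Mdh or Sucl) and at least 10 counts in 5 or more libraries. Only 1966 of the 23978 identifiers in the count table could be paired with a symbol, and these are low-numbered identifiers. The 28 genes are thus a sample from some of these families and not whole families. None has the prefix Uqc, Coa, Chchd, Etf, Idh or Sucl, so the Uqc genes of complex III, among others, are not represented. All 28 paired genes with such a prefix passed the count rule and are members.

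The mRNA came from female Long Evans rats heterozygous for Drd1a-iCre (D1-Cre) or Drd2-iCre (D2-Cre), in which a Cre-dependent AAV9 vector put an HA-tagged ribosomal protein, Rpl22, into the cells of the nucleus accumbens (NAc) that express Cre. Ribosomes were pulled down with an antibody to the tag (IP), and the libraries hold the mRNA bound to them, from bilateral punches of 1 rat per library. Each rat was given 6 injections of saline or of 10 mg/kg ketamine, 4 days apart or occasionally more, always in proestrus or always in diestrus, and tissue was taken 4 days after the last injection, following 30 min in the test context. The ketamine-treated rats were picked from those whose locomotor activity increased with treatment. The 8 groups cross cell type, cycle stage and treatment, with 5 libraries each except D2-Cre, proestrus, ketamine, which has 4.

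Most of the protein of a mitochondrion is encoded in the nucleus, made on cytosolic ribosomes and imported through the TOM and TIM complexes of the outer and inner membranes. The respiratory chain passes electrons from NADH (complex I) and succinate (complex II) through coenzyme Q to complexes III and IV, and the proton gradient that results drives ATP synthase, which turns ADP into ATP. The mitochondrial ribosome translates the few subunits that mitochondrial DNA itself encodes, so complexes I, III, IV and V are built from parts made in 2 places. In striatal neurons this machinery supplies the ATP that restores ion gradients after firing.

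Total counts per library ran from 2396517 to 43224256, with a median of 20494896. Library 39 (D2-Cre, diestrus, saline) was the shallowest, and the second lowest total was 16118050. Library 33 (D1-Cre, proestrus, saline) had a TMM normalization factor of 0.909, against 0.983 to 1.04 in the other libraries. Adora2a, the adenosine receptor gene of D2 neurons, lay between 141 and 222 CPM (counts scaled to the library total) in D1-Cre IP samples and between 455 and 1056 CPM in D2-Cre IP samples, where library 32 (D2-Cre, diestrus, ketamine) had the lowest value and the next lowest was 768. None of the 7 markers listed for D1 neurons could be paired with an identifier, so the D1-Cre samples were checked only by low Adora2a.

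Of the members, 27 had at least 10 counts in all 39 libraries. The exception was Mrps17, a protein of the small mitochondrial subunit, with 0 to 117 counts per library and at least 10 in 36. Levels below are CPM after TMM normalization over all libraries, which are not divided by transcript length and so are compared between libraries and not between genes. Group means were close together: the ratio of the highest to the lowest of the 8 group means was 1.06 for Atp5f1b, the catalytic beta subunit of ATP synthase, had a median of 1.13 over the members and was under 1.2 for 25 of 28. The exceptions were Mrps35, another protein of the small mitochondrial subunit, at 1.27, Acads, the short-chain acyl-CoA dehydrogenase of fatty acid oxidation, at 1.39, and Mrps17 at 1.63.

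The members also varied little from rat to rat. Their SD within a group, on the log2 scale, had a median of 0.112, against 0.177 over the 14129 genes that passed the count filter, and it was below that median for 26 of 28 members. The members were also counted more deeply, with a median log2 mean of 5.32 CPM against 4.41 for all genes. Ndufv3, an accessory subunit of complex I, had the smallest SD at 0.066. Acads, with 17 to 186 counts per library, had an SD of 0.48, and Mrps17 one of 1.14.

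Between cell types, the question was which mitochondrial genes are D1- or D2-biased in ribosome-bound mRNA. In saline-treated rats, 7 of the 28 members were differentially expressed (DE) between 10 D2-Cre and 10 D1-Cre IP samples at an adjusted p under 0.1, and 28.8% of all 13689 genes tested were. Of these, 6 were lower in D2-Cre samples, where 14.1% of all genes were called lower, and 1 was higher, where 14.6% were. The 6 lower genes were Mrps35, Sdhc, Mdh2, Atp5po, Atp5mc3 and Atp5pf, and the higher gene was Tomm70. Each difference was small, at most 0.23 on the log2 scale. The share of members called is near the share of all genes called. Fold changes below are log2 of D2 over D1, with the SE and the Benjamini-Hochberg adjusted p of edgeR's quasi-likelihood test.

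Mrps35 (ENSRNOG00000001842) had the lowest adjusted p of the members, and it was the only member called in saline- and in ketamine-treated rats alike. In the 10 D1-Cre saline samples its level was 44.6, 33.2, 32.3, 40.1 and 33.8 CPM in proestrus and 38.3, 39.3, 36.4, 37.6 and 36.6 CPM in diestrus. In the 10 D2-Cre saline samples it was 30.8, 30.7, 28.2, 31.2 and 29.5 CPM in proestrus and 31.6, 34.9, 31.7, 33.1 and 31.5 CPM in diestrus. All 10 D2-Cre samples lay below the D1-Cre median, and 8 lay below every D1-Cre sample. The fold change was -0.23 (SE 0.044, adjusted p = 0.000788), with a 95% interval of -0.32 to -0.14.

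Mrps35 showed the same order after ketamine. The D1-Cre samples had 36.4, 37.9, 39.0, 35.9 and 34.4 CPM in proestrus and 41.6, 37.1, 39.1, 38.9 and 34.3 CPM in diestrus. The D2-Cre samples had 33.2, 28.8, 32.6 and 34.5 CPM in proestrus and 37.1, 32.9, 33.5, 36.3 and 30.4 CPM in diestrus. All 9 D2-Cre samples lay below the D1-Cre median and 6 below every D1-Cre sample. The fold change was -0.18 (SE 0.039, adjusted p = 0.00224), with an interval of -0.26 to -0.10. The call held when any 1 library was left out, in 20 of 20 saline fits and 19 of 19 ketamine fits. A single model of all libraries ended the saline call and gave -0.13 (SE 0.052, adjusted p = 0.103).

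Sdhc (ENSRNOG00000003163) encodes a membrane anchor of succinate dehydrogenase, complex II, which is at once an enzyme of the citrate cycle and an entry point of the respiratory chain. Its saline level ran from 128 over a median of 132 to 161 CPM in D1-Cre samples and from 110.0 over 126 to 138 CPM in D2-Cre samples. The ranges overlapped, with 8 of 10 D2-Cre samples below the D1-Cre median and 5 below every D1-Cre sample. The fold change was -0.15 (SE 0.041, adjusted p = 0.0126).

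Mdh2 (ENSRNOG00000001440), the mitochondrial malate dehydrogenase, runs the last step of the citrate cycle. It ranged from 299 over 313 to 332 CPM in D1-Cre saline samples and from 262 over 294 to 316 CPM in D2-Cre saline samples. In 9 of 10 D2-Cre samples it lay below the D1-Cre median, and in 7 below every D1-Cre sample. Its fold change was -0.11 (SE 0.032, adjusted p = 0.0198).

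Tomm70 (ENSRNOG00000001640) encodes the outer-membrane receptor that takes precursor proteins from cytosolic chaperones, and it was the only D2-biased member with saline. Its saline level ran from 799 over 947 to 1112 CPM in D1-Cre samples and from 932 over 1024 to 1212 CPM in D2-Cre samples. It lay above the D1-Cre median in 8 of 10 D2-Cre samples and above every D1-Cre sample in 3. The fold change was 0.17 (SE 0.049, adjusted p = 0.0193).

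For the 4 members with the lowest adjusted p in saline-treated rats, the bases around the transcription start were looked up, because members that are regulated together in other tissues often share motifs for nuclear respiratory factors there. RefSeq promoters (GRCr8, 250 bases before to 50 after the start) were found for 24 of the 28 members, and not for Atp5pd, Coq2, Cox6a1 and Mrps35. The other 3 of those 4 genes are printed below, 5′ to 3′ in the sense of the gene, with each copy of the ETS motif CCGGAAG, on either strand, in capitals. Sdhc lies at chr13:86097976-86098275 on the minus strand, Tomm70 at chr11:56886227-56886526 on the minus strand and Mdh2 at chr12:26543792-26544091 on the minus strand.
Sdhc: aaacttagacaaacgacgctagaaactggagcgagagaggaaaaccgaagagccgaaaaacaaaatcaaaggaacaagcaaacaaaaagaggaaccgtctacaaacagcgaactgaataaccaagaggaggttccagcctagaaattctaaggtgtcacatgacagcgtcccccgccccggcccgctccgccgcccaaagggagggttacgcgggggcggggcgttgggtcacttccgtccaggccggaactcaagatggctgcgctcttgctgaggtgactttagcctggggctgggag
Tomm70: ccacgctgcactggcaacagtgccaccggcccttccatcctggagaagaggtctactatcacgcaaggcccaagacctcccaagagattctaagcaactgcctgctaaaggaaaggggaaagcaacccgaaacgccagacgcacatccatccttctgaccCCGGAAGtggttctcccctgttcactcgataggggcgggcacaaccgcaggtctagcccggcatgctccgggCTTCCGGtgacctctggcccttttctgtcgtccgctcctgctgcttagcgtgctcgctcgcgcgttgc
Mdh2: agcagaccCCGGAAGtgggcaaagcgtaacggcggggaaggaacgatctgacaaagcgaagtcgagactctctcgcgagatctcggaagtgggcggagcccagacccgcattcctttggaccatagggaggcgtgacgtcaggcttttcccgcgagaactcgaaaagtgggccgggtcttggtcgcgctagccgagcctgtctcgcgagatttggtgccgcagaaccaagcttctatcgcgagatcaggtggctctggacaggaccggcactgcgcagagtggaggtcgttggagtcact

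Counted from 0 at the start, Tomm70 held the ETS motif, which GABPA (NRF-2) binds, at -90 to -84 on its own strand and at -18 to -12 on the other strand. Mdh2 held it at -242 to -236, and Sdhc held no exact copy of CCGGAAG. Only exact copies were searched for, so sites that differ by a base are not counted. Across the 24 member promoters, CCGGAAG was in 8 (Atp5me, Atp5pf, Mdh2, Mrpl27, Mrps18b, Mrps18c, Timmdc1 and Tomm70), and in 8.75% of all 33469 promoters. The NRF1 motif, GCGCA followed by any base and GCGC, was in 7 (Atp5mc3, Atp5me, Atp5po, Cox18, Mrps18b, Ndufb4 and Ndufv3), and in 4.25% of all. The YY1 motif AAGATGGCG was in 3 (Atp5pf, Coq5 and Tomm40l), and in 1.73% of all. The ERRalpha motif TCAAGGTCA was in Atp5mc3 alone, and in 0.433% of all. Both strands were searched, and motifs were counted also where they overlapped.

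The 6 ATP synthase genes are a mixed group. In saline-treated rats 3 were DE, all lower in D2-Cre samples, where 28.8% of all genes were DE and 14.1% were called lower. Atp5po (ENSRNOG00000001991), the OSCP subunit that ties the catalytic head to the peripheral stalk, ran from 214 over 229.9 to 258 CPM in D1-Cre samples and from 183 over 212 to 239 CPM in D2-Cre samples, with 6 D2-Cre samples below every D1-Cre sample. Its fold change was -0.11 (SE 0.038, adjusted p = 0.0487). Atp5mc3 (ENSRNOG00000001596), which encodes a c subunit of the rotating ring and is 1 of several genes with the same mature product, ran from 317 over 340.2 to 412 CPM and from 280.4 over 325 to 353 CPM. Its fold change was -0.12 (SE 0.046, adjusted p = 0.0763), and reads that could stem from a sister gene were assigned by the authors' quantification.

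Atp5pf (ENSRNOG00000001551), coupling factor 6 of the peripheral stalk, ran from 93.9 over 98.5 to 116 CPM in D1-Cre saline samples and from 87.3 over 93.9 to 101 CPM in D2-Cre saline samples. Its fold change was -0.10 (SE 0.040, adjusted p = 0.0785), with 9 of 10 D2-Cre samples below the D1-Cre median. The other 3 did not pass the test. Atp5f1b had a fold change of -0.053 (SE 0.032, adjusted p = 0.263). Atp5pd, subunit d of the peripheral stalk, had -0.049 (SE 0.049, adjusted p = 0.521). Atp5me, subunit e of the membrane part, had 0.029 (SE 0.054, adjusted p = 0.756).

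The calls other than Mrps35 could be lost by leaving out 1 library, and fewer of all genes were then called as well. With 1 library left out, the fold change nearest to 0 was -0.048 for Sdhc, -0.047 for Mdh2, 0.082 for Tomm70, -0.043 for Atp5po, -0.046 for Atp5mc3 and -0.066 for Atp5pf, all of the same sign as with every library. In a single model of all libraries Sdhc was at -0.0030, Mdh2 at -0.052, Atp5po at -0.017, Atp5pf at -0.030, Atp5mc3 at 0.0093 and Tomm70 at -0.030, and Mrps35 at -0.13 without a call (adjusted p = 0.103), where 13.1% of all genes were called. Without library 1 (D1-Cre, proestrus), library 17 (D1-Cre, proestrus) or library 39, each left out alone, Mrps35 was the 1 member still called, and the share of all genes called fell to 8.96%, 11.4% and 13.9%. Without libraries 33 and 39, Mrps35 was again the 1 member called, at -0.23 (adjusted p = 0.0091), where 11.9% of all genes were called.

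**Figure D1:**
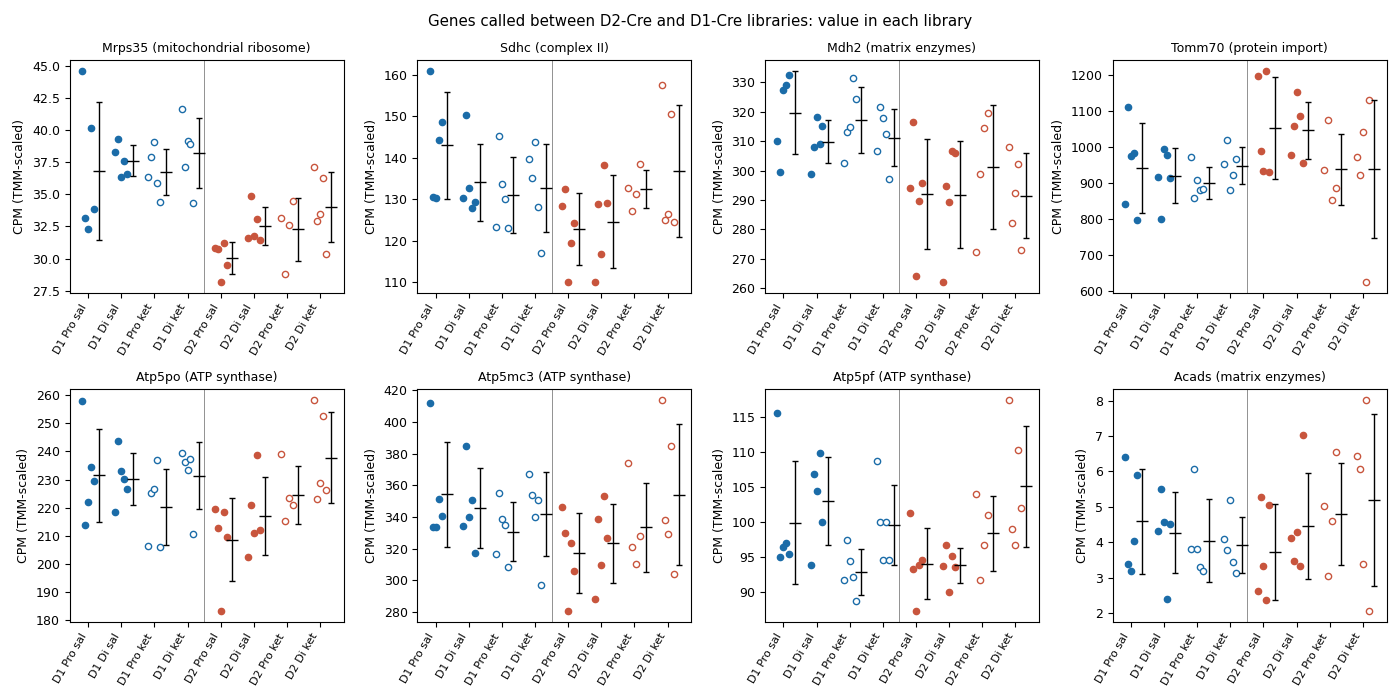
Level of the 8 members called between D2-Cre and D1-Cre samples in either treatment, in CPM (vertical axes, not starting at 0), 1 point per library, for D1-Cre (blue) and D2-Cre (red) samples, filled for saline and open for ketamine, with bars at the mean ± SD. Mrps35 is lower in D2-Cre samples in both treatments, with means of 37.2 and 31.3 CPM in saline and 37.5 and 33.3 CPM in ketamine, while the clouds of the other genes overlap more.

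None of the members of the other roles passed the test in saline-treated rats. In complex I, Ndufb4, an accessory subunit of the membrane arm, had a fold change of -0.089 (SE 0.045, adjusted p = 0.175) and Ndufv3 one of -0.012 (SE 0.035, adjusted p = 0.858). Timmdc1, which helps to assemble complex I, had -0.041 (SE 0.039, adjusted p = 0.493). In complex IV, Cox6a1, an accessory subunit, had -0.032 (SE 0.040, adjusted p = 0.628), and Cox18, which inserts a core subunit into the membrane, had -0.10 (SE 0.052, adjusted p = 0.178). Of the enzymes of coenzyme Q synthesis, Coq2 had -0.040 (SE 0.033, adjusted p = 0.42) and Coq5 had -0.041 (SE 0.040, adjusted p = 0.518). Acads had -0.10 (SE 0.13, adjusted p = 0.616).

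In the mitochondrial ribosome, Mrps35 was the 1 of 9 members called, where 28.8% of all genes were called. In the large subunit, Mrpl1 had a fold change of -0.040 (SE 0.062, adjusted p = 0.695), Mrpl27 one of 0.016 (SE 0.050, adjusted p = 0.912) and Mrpl55 one of -0.10 (SE 0.057, adjusted p = 0.21). In the small subunit, Mrps7 had 0.0084 (SE 0.038, adjusted p = 0.912), Mrps14 had -0.022 (SE 0.052, adjusted p = 0.807), Mrps18b had -0.047 (SE 0.048, adjusted p = 0.538) and Mrps18c had -0.035 (SE 0.057, adjusted p = 0.721). Mrps17 had -0.34 (SE 0.40, adjusted p = 0.605), the widest interval of the set, from -1.19 to 0.51. Of the import genes beside Tomm70, Timm44, which tethers the import motor to the inner membrane, had -0.093 (SE 0.041, adjusted p = 0.119), and Tomm40l, a homologue of the outer-membrane channel, had -0.079 (SE 0.052, adjusted p = 0.308). With 1 library left out at a time, Timm44 was called in 9 of 20 fits (lowest adjusted p = 0.0161), Cox18 in 8 (0.0191), Ndufb4 in 3 (0.0753) and Mrpl55 in 1 (0.0709), all lower in D2-Cre samples, and 24.1% to 30.6% of all genes were called in those fits.

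By direction alone, 24 of the 28 members had a fold change below 0 in saline-treated rats, with a median of -0.051, while 49.8% of all genes tested lay below 0. With another fit or count filter, 18 to 25 members lay below 0, and without library 1, or without library 17, 19 did. The 95% interval lay within 0.3 on the log2 scale (23.1%) of no difference for 25 of 28 members.

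**Figure D2:**
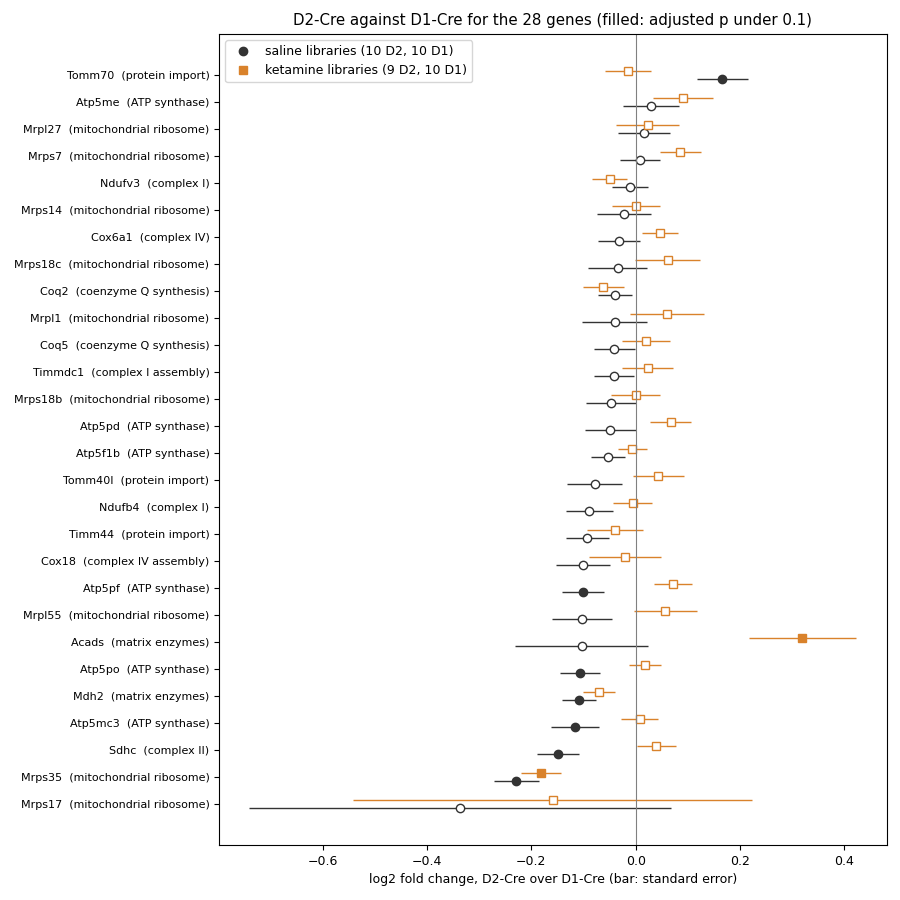
Log2 fold change of D2-Cre over D1-Cre samples (horizontal axis) for each of the 28 members (vertical axis), with bars of 1 SE, in saline (black circles, 10 against 10 libraries) and ketamine (orange squares, 9 against 10). Filled symbols have an adjusted p under 0.1. In saline 24 members lie left of 0, in ketamine 10 do, and Mrps35 is filled on the left in both.

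After ketamine, 2 of 28 members were DE between 9 D2-Cre and 10 D1-Cre samples, and 18.0% of 13850 genes were (8.16% higher and 9.83% lower in D2-Cre samples). The first was Mrps35, as above. The second was Acads (ENSRNOG00000001177), which ran from 3.15 over 3.80 to 6.07 CPM in D1-Cre samples and from 2.06 over 5.03 to 8.02 CPM in D2-Cre samples. Of the 9 D2-Cre samples, 3 lay above and 2 below every D1-Cre sample. Its fold change was 0.32 (SE 0.10, adjusted p = 0.0409), with an interval of 0.11 to 0.53, and the call was lost without library 28 (D1-Cre, diestrus; 0.28, adjusted p = 0.113) or library 38 (D2-Cre, proestrus; 0.20, adjusted p = 0.269). It held in 4 of 8 other fits, and was lost with no surrogate variable, with 1, with at least 10 counts in every library and with blocks of 8 consecutive library numbers (adjusted p = 0.335 with blocks, and up to 0.472). The highest of its D2-Cre values, 8.02 CPM, was that of library 32, which had the lowest Adora2a of the D2-Cre samples. Without library 32 the fold change was 0.25 for Acads (SE 0.099, adjusted p = 0.0992) and -0.18 for Mrps35 (adjusted p = 0.00178), and 3 members were called.

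The 6 other genes called in saline-treated rats did not pass the test after ketamine. Sdhc had a fold change of 0.039 (SE 0.037, adjusted p = 0.566) and Mdh2 one of -0.070 (SE 0.030, adjusted p = 0.139), with a call in 5 of 19 fits that left out 1 library. Tomm70 had -0.015 (SE 0.044, adjusted p = 0.879), with D2-Cre samples from 625 to 1131 CPM, the lowest being library 32, and 0.058 (adjusted p = 0.297) without it. Atp5po had 0.018 (SE 0.030, adjusted p = 0.773), Atp5mc3 had 0.0074 (SE 0.036, adjusted p = 0.931) and Atp5pf had 0.072 (SE 0.036, adjusted p = 0.217).

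Of the other ATP synthase genes, Atp5f1b had -0.0062 (SE 0.028, adjusted p = 0.923), Atp5pd had 0.067 (SE 0.039, adjusted p = 0.296) and Atp5me had 0.091 (SE 0.058, adjusted p = 0.36). In the respiratory chain, Ndufb4 had -0.0058 (SE 0.037, adjusted p = 0.949), Ndufv3 had -0.050 (SE 0.033, adjusted p = 0.389), Timmdc1 had 0.023 (SE 0.049, adjusted p = 0.83), Cox6a1 had 0.047 (SE 0.034, adjusted p = 0.433) and Cox18 had -0.021 (SE 0.069, adjusted p = 0.891). Coq2 had -0.062 (SE 0.039, adjusted p = 0.348) and Coq5 had 0.020 (SE 0.046, adjusted p = 0.84). None of these passed the test.

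In the mitochondrial ribosome after ketamine, Mrpl1 had 0.060 (SE 0.071, adjusted p = 0.661), Mrpl27 had 0.023 (SE 0.060, adjusted p = 0.859), Mrpl55 had 0.057 (SE 0.060, adjusted p = 0.615), Mrps7 had 0.086 (SE 0.039, adjusted p = 0.173) and Mrps14 had 0.00064 (SE 0.046, adjusted p = 0.996). Mrps18b had 0.00035 (SE 0.047, adjusted p = 0.998), Mrps18c had 0.062 (SE 0.062, adjusted p = 0.597) and Mrps17 had -0.16 (SE 0.38, adjusted p = 0.847). In import, Timm44 had -0.040 (SE 0.054, adjusted p = 0.708) and Tomm40l had 0.044 (SE 0.049, adjusted p = 0.645).

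Set side by side, the saline and ketamine fold changes, which come from separate rats, had the same sign for 12 of 28 members (42.9%) and for 67.1% of the 13639 genes tested in both. Of the 7 members called in saline, 2 kept their sign (Mrps35 and Mdh2, 28.6%), against 85.7% of the 3933 such genes. The 2 sets were not matched in size of difference. These 7 members differed by at most 0.23 in saline, while the 3933 genes include far larger differences, such as Adora2a at 2.38. The members also often shift together within a library, so they are not 7 independent cases. The difference between the cell-type differences was tested as an interaction of cell type and treatment over all 39 libraries. No member was called, at a background of 0.0% of all genes, and 1 had an unadjusted p under 0.05. That was Atp5pf, with an interaction of 0.14 (SE 0.056, unadjusted p = 0.0184, adjusted p = 1.00). The interaction was above 0 for 22 of 28 members, with a median of 0.056, where 48.3% of all genes were above 0.

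Within a cycle stage, with 4 or 5 libraries a group, a call was made once. In proestrus, no member was called in saline (background 5.41%, 2 members at an unadjusted p under 0.05) or in ketamine (5.61%, 3 members). In diestrus, none was called in saline (4.11%, 4 members), and Mrps35 was called in ketamine (12.8%). The Mrps35 call in diestrus held in 4 of 8 other fits (adjusted p = 0.193 with blocks of 8 consecutive library numbers) and in 3 of 10 with a library left out, being lost without library 4, 12, 16, 20, 24, 36 or 40, at fold changes of -0.19 to -0.15. DESeq2 called 1 member in each stage with saline and 0 in proestrus with ketamine. Mrps35 had a fold change of -0.30 (SE 0.097, adjusted p = 0.124) in proestrus with saline and -0.22 (SE 0.066, adjusted p = 0.105) in proestrus with ketamine, the lowest p of the members in both. It had -0.17 (SE 0.069, adjusted p = 0.29) in diestrus with saline and -0.17 (SE 0.058, adjusted p = 0.0864) in diestrus with ketamine.

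Mrps35 was therefore below 0 in each of the 4 strata. These strata are made of the same libraries as the tests of both stages together, in which Mrps35 was picked. Their agreement is thus not separate support. Its D2-Cre and D1-Cre samples did not overlap in saline in proestrus, at 28.2 to 31.2 against 32.3 to 44.6 CPM, nor in diestrus, at 31.5 to 34.9 against 36.4 to 39.3 CPM. Such separation, in either direction, was found for 6.44% and 6.02% of all genes. With ketamine the samples overlapped. In proestrus with ketamine, D2-Cre samples lay at 28.8 to 34.5 CPM and D1-Cre samples at 34.4 to 39.0 CPM. In diestrus with ketamine, these were 30.4 to 37.1 and 34.3 to 41.6 CPM. In these 2 strata 5.63% and 4.76% of all genes separated. In diestrus with saline the member with the lowest p was Tomm70, at 0.24 (SE 0.076, adjusted p = 0.147). The interaction of cell type and cycle stage in saline-treated rats called no member (background 0.0%, none at an unadjusted p under 0.05), and its lowest p was that of Mrps14, at -0.20 (SE 0.10, unadjusted p = 0.0679).

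The next question was whether ketamine altered these genes. No member was called between ketamine and saline in D1-Cre samples in proestrus (background 0.00759% of all genes) or diestrus (0.0227%), or in D2-Cre samples in proestrus (0.0%) or diestrus (0.0%), by edgeR's quasi-likelihood test. At an unadjusted p under 0.05 there were 3, 0, 1 and 1 members in that order, and 764, 352, 457 and 355 genes in all. DESeq2 with 2 surrogate variables also called 0 members in each of these 4 comparisons, in the comparisons of cycle stages and in the interactions. It called 0.121%, 0.0757%, 0.00745% and 0.0% of all genes in the 4, and at most 0.0441% in the others. The 95% interval lay within 0.3 on the log2 scale for 26, 25, 23 and 22 of the 28 members, so for most of them a change by more than 23.1% lay outside the interval. In none of these comparisons did the ketamine and saline libraries of a member separate, where 0.705%, 0.401%, 1.13% and 0.632% of all genes did.

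In D1-Cre samples in proestrus, the members with the lowest p were Sdhc, Atp5mc3, Atp5pf and Atp5me. Sdhc was at 161, 131, 130.3, 144 and 149 CPM with saline and at 123, 145, 134, 130.2 and 123 CPM with ketamine, a fold change of -0.14 (SE 0.049, unadjusted p = 0.0156, adjusted p = 0.81). Atp5mc3 was at 412, 333, 334, 352 and 340.5 CPM with saline and at 317, 355, 338, 335 and 309 CPM with ketamine, a fold change of -0.10 (unadjusted p = 0.0209, adjusted p = 0.82). For both genes the highest saline value was that of library 1, and the groups overlapped. Atp5pf was at 116, 95.1, 96.4, 97.0 and 95.5 CPM with saline and at 91.8, 97.4, 94.5, 92.2 and 88.7 CPM with ketamine, a fold change of -0.11 (unadjusted p = 0.0212, adjusted p = 0.82). Atp5me was at 38.6, 33.1, 31.6, 37.1 and 35.3 CPM with saline and at 29.2, 38.3, 33.1, 30.1 and 33.0 CPM with ketamine, a fold change of -0.12 (unadjusted p = 0.0586, adjusted p = 0.852). Library 1 stood highest among the saline samples here as well.

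In that stratum 26 of 28 members lay below 0, with a median of -0.066, while 48.8% of all genes did. Without library 1, 21 members lay below 0 and the median was -0.024. All 6 ATP synthase genes, both complex I genes, Sdhc and Cox6a1 were among the 26. None of them passed the test alone.

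In D1-Cre samples in diestrus, the libraries of the same 4 genes overlapped as well. Sdhc was at 130.2, 150.5, 133, 128 and 129 CPM with saline and at 139.8, 135, 144, 128 and 117 CPM with ketamine. Atp5mc3 was at 334, 385, 339.9, 350.4 and 317 CPM with saline and at 367, 354, 339.9, 351 and 297 CPM with ketamine. For both genes the lowest value came from a ketamine sample and the highest from a saline sample. Atp5pf was at 93.9, 107, 104, 109.9 and 100.0 CPM with saline and at 109, 100.1, 94.7, 100.1 and 94.6 CPM with ketamine. Atp5me was at 33.2, 37.5, 33.1, 35.0 and 33.4 CPM with saline and at 42.4, 34.7, 34.1, 35.4 and 32.6 CPM with ketamine. Over the members, 18 lay above 0 (49.3% of all genes did) and the median was 0.015. The lowest p was that of Cox18, at -0.14 (SE 0.081, unadjusted p = 0.0985). The interaction of ketamine and cycle stage in D1-Cre samples called no member (background 0.0%, 2 members at an unadjusted p under 0.05) and was lowest in p for Sdhc, at -0.11 (SE 0.044, unadjusted p = 0.018, adjusted p = 0.972).

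In D2-Cre samples in proestrus, Sdhc was at 128, 133, 110.1, 119 and 124 CPM with saline and at 133, 127, 131 and 139 CPM with ketamine. Atp5mc3 was at 347, 329.6, 280.4, 324 and 306 CPM with saline and at 374, 321, 310.1 and 328 CPM with ketamine. The groups overlapped for both. Atp5pf was at 101, 93.3, 87.3, 93.9 and 94.6 CPM with saline and at 104, 91.8, 96.8 and 101 CPM with ketamine. Atp5me was at 37.5, 31.2, 33.1, 38.8 and 30.9 CPM with saline and at 38.7, 35.9, 31.8 and 34.5 CPM with ketamine. Of the members, 20 lay above 0, with a median of 0.038 (49.7% of all genes lay above 0), and the lowest p was that of Mrpl55 (0.19, SE 0.086, unadjusted p = 0.0449).

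In D2-Cre samples in diestrus, Sdhc was at 110.0, 129, 117, 138 and 129 CPM with saline and at 158, 125, 127, 151 and 124 CPM with ketamine. Atp5mc3 was at 288, 338, 310.0, 353 and 327 CPM with saline and at 414, 338, 329, 385 and 304 CPM with ketamine. The highest ketamine value of both was that of library 8. Atp5pf was at 93.8, 96.8, 90.0, 95.2 and 93.6 CPM with saline and at 117, 99.0, 96.7, 110.3 and 102 CPM with ketamine, where 4 of the 5 ketamine samples lay above every saline sample. Atp5me was at 38.4, 37.1, 32.1, 40.4 and 31.1 CPM with saline and at 41.5, 37.8, 37.1, 36.4 and 37.6 CPM with ketamine. Of the members, 22 lay above 0, with a median of 0.058, while 49.1% of all genes did. Without library 8, 19 members lay above 0 and the median was 0.017. The lowest p was that of Mrpl1 (0.25, SE 0.092, unadjusted p = 0.0189). The interaction of ketamine and cycle stage in D2-Cre samples called no member (background 0.0%, none at an unadjusted p under 0.05), with the lowest p at Ndufv3 (-0.12, SE 0.061, unadjusted p = 0.0577).

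**Figure D3:**
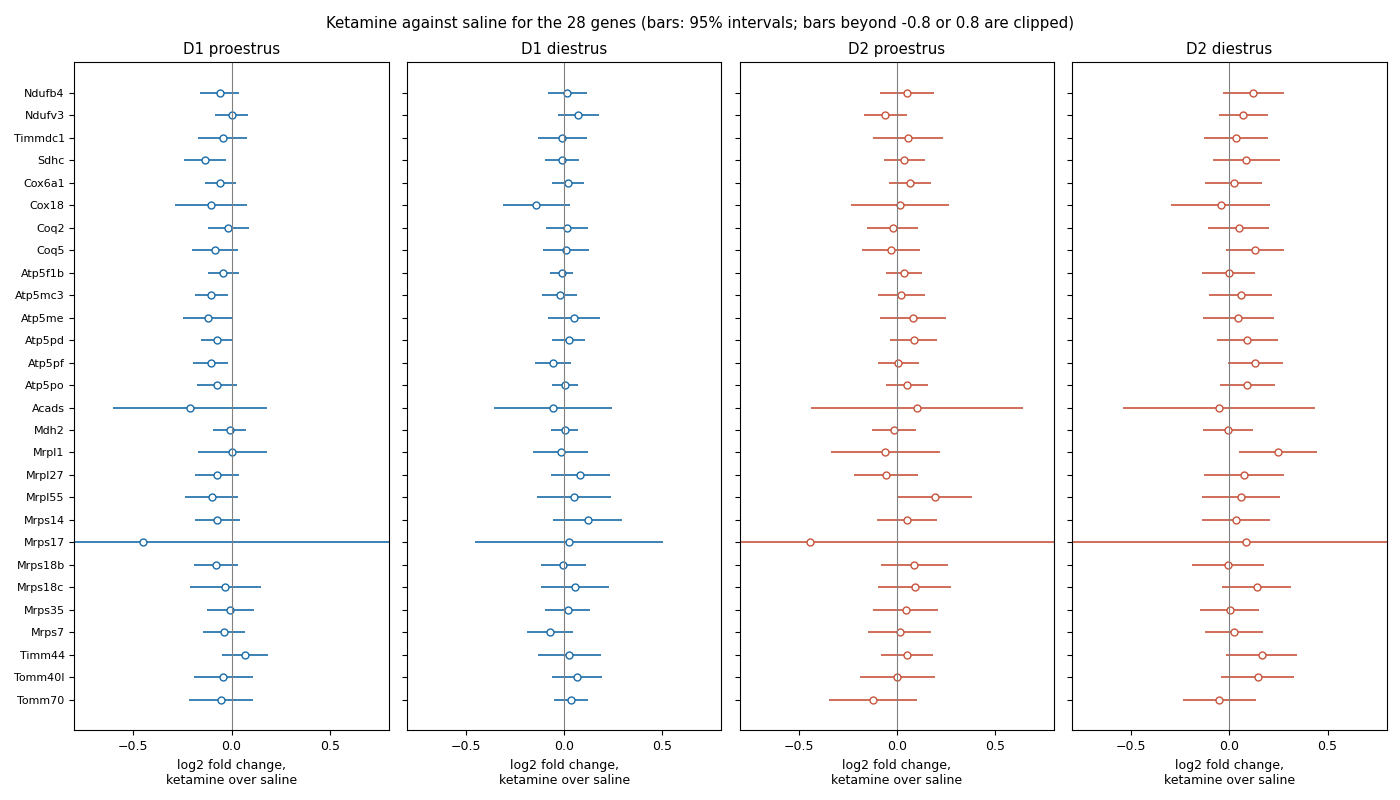
Log2 fold change of ketamine over saline (horizontal axes, clipped at 0.8 either way) for each of the 28 members in 4 panels, 1 per cell type and cycle stage, with 95% intervals and open symbols for an adjusted p of 0.1 or more. All symbols are open. In D1-Cre samples in proestrus 26 members lie left of 0, and in D2-Cre samples in diestrus 22 lie right of it.

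Between proestrus and diestrus, no member was called in D1-Cre samples with saline or ketamine, or in D2-Cre samples with saline or ketamine (background 0.0% in each). By edgeR's unadjusted p under 0.05 there were 1, 3, 2 and 2 members in that order, and 522, 516, 546 and 469 genes in all. Fold changes here are proestrus over diestrus. The lowest p was that of Sdhc in D1-Cre saline samples (0.093, SE 0.040, unadjusted p = 0.0342), of Ndufb4 in D1-Cre ketamine samples (-0.11, SE 0.045, unadjusted p = 0.0274), of Mrps18b in D2-Cre saline samples (-0.16, SE 0.068, unadjusted p = 0.0325) and of Ndufv3 in D2-Cre ketamine samples (-0.14, SE 0.059, unadjusted p = 0.0396).

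In 2 cases the libraries of both stages separated, in D2-Cre samples. Mrps35 in saline-treated rats lay at 28.2 to 31.2 CPM in proestrus and 31.5 to 34.9 CPM in diestrus, with a fold change of -0.13 (SE 0.061, unadjusted p = 0.0479), and 0.382% of all genes separated in either direction. Ndufv3 in ketamine-treated rats lay at 57.5 to 59.4 CPM in proestrus, from 4 libraries, and 61.6 to 67.8 CPM in diestrus, where 0.662% of all genes separated. By direction, 22 of 28 members lay above 0 in D1-Cre saline samples (median 0.026, with 49.5% of all genes above 0). In D1-Cre ketamine samples 22 lay below 0 (median -0.057, with 49.9% of all genes below 0), in D2-Cre saline samples 24 (median -0.053, with 50.9%) and in D2-Cre ketamine samples 24 (median -0.059, with 46.5%). These comparisons share each group with a cell-type and a ketamine comparison above. Members often shift together within a library, so these counts are not of independent genes. Library 1 (D1-Cre, proestrus, saline) had 22 members above their group means. Library 21 (D2-Cre, proestrus, saline) had 25 below, and library 8 (D2-Cre, diestrus, ketamine) 27 above. Each shifted in the direction of its count, while library 11 (D1-Cre, diestrus, saline), with 24 above, went the other way. Counts without these libraries are not given here.

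Within a group, the ATP synthase genes often deviated together from rat to rat, and the other members differed in how often they lay on the same side. In 18 of the 39 libraries, all 6 ATP synthase genes lay on the same side of their group means, above in 9 libraries and below in 9. All 6 cytosolic ribosomal protein genes that could be paired and tested did so in 4 libraries. In those 18 libraries, Sdhc lay on the same side as ATP synthase in 18, Mrps18b in 17, Cox6a1 and Mrps35 in 16 each, and Ndufb4 in 14. Tomm40l did so in 7 and Acads, Coq2 and Mrps17 in 10 each.

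The largest shifts came from few rats. Library 8 (D2-Cre, diestrus, ketamine) had 27 of 28 members above their group means, with a median deviation of 0.14 on the log2 scale, and its ATP synthase genes lay 0.12 to 0.23 above. Library 1 had 22 above, with a median of 0.16, and its ATP synthase genes lay 0.068 to 0.23 above. Library 21 (D2-Cre, proestrus, saline) had 25 below, with a median of -0.10, and its ATP synthase genes lay between -0.20 and -0.045. The cytosolic ribosomal protein genes had medians of 0.16 in library 8, 0.22 in library 1 and -0.0005 in library 21. In libraries 8 and 1 they were thus high as well, and in library 21 they were not low. Fewer cells of a type and less RNA per cell cannot be told apart in such pooled tissue.

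**Figure D4:**
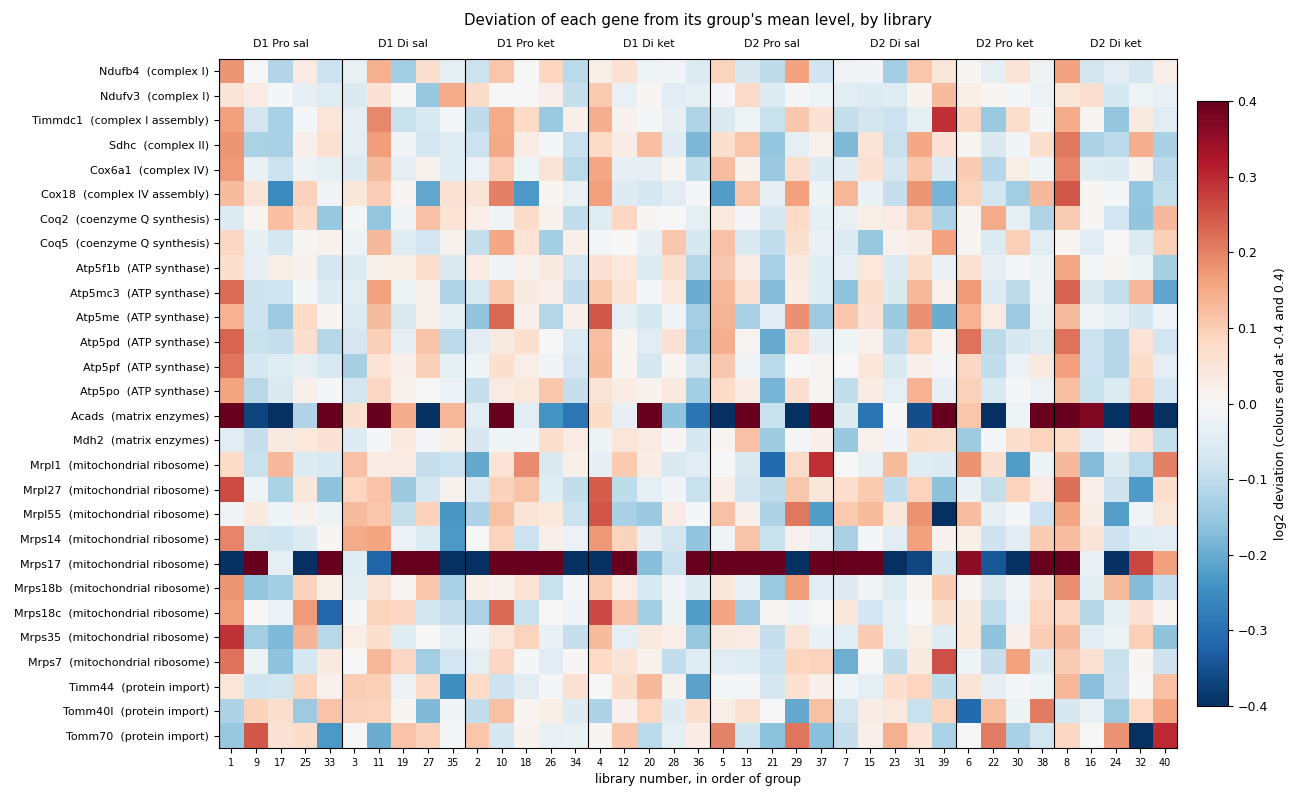
Deviation of each member (rows) from its group mean in each of the 39 libraries (columns, by group), on the log2 scale, with colours that end at 0.4 either way. Libraries 1 and 8 show columns above their group means, with median deviations of 0.16 and 0.14, and libraries 21 and 36 columns below, with -0.10 and -0.081.

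Genes of other cell types moved with the cell-type comparison. In saline-treated rats, D2-Cre samples had more of the astrocyte gene Gja1 (0.59, adjusted p = 0.0105), the oligodendrocyte gene Mog (0.51, adjusted p = 0.0239) and the endothelial gene Flt1 (0.82, adjusted p = 0.0105), while Gfap, Rgs5 and Aif1 did not pass the test. The interneuron genes Sst (-1.61) and Nos1 (-1.78) were lower. Over both treatments, the summed level ran from 28.8 to 50.7 CPM in D1-Cre and 39.4 to 113 CPM in D2-Cre samples for astrocytes (2 of 6 markers paired). It ran from 2.97 to 6.35 and 3.31 to 14.8 CPM for endothelium and mural cells (2 of 6), from 0.36 to 2.16 CPM over both cell types for microglia (1 of 6), and from 247 to 833 and 71.9 to 288 CPM for interneurons (2 of 6). None of the markers given here was at 0. After ketamine, Gja1 (0.39, adjusted p = 0.0202) and Flt1 (0.69, adjusted p = 0.0044) were again higher, and Mog was not called. In diestrus with ketamine alone, where Mrps35 was called, Gja1 (0.67, adjusted p = 0.00107), Mog (0.43, adjusted p = 0.0793) and Flt1 (1.03, adjusted p = 0.00152) were higher in D2-Cre samples. Sst (-1.58, adjusted p = 0.0211) and Nos1 (-2.23, adjusted p = 0.00047) were lower there, and Gfap, Rgs5 and Aif1 were not called. The part of these cells in the differences of Mrps35 and the other members was not tested.

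Other genes of energy metabolism were few. Of 17 listed genes of the citrate cycle 3 could be paired, Sdhc, Mdh2 and Fh, the fumarase that makes the malate Mdh2 uses. All 3 were called lower in D2-Cre samples with saline, where 14.1% of all genes were called lower. Sdhc and Mdh2 are the members described above, so the list adds only Fh, at -0.14 (SE 0.049, adjusted p = 0.0528). None was called with ketamine. The calls of Sdhc and Mdh2 were lost without library 1, 17 or 39, as above. Pfkl, a glycolytic phosphofructokinase, had -0.047 (adjusted p = 0.244). Of the regulators of mitochondrial genes, Tfam, which packages mitochondrial DNA and helps to start its transcription, had 0.038 (adjusted p = 0.538). Tfb2m, its partner factor, had -0.045 (adjusted p = 0.576). Of the cytosolic ribosomal protein genes, 1 of 6 was called with saline, Rps10, and it was higher (0.39, adjusted p = 0.0902). Of 8 proteasome genes, 2 were called lower with saline, Psmd12 (-0.093, adjusted p = 0.0579) and Psmg1 (-0.12, adjusted p = 0.0866). With ketamine Psmg3 was called higher (0.42, adjusted p = 0.0288). No gene of these lists was called in a ketamine, cycle or interaction comparison.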

How the data were processed

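The deposited table held, per the file headers, 23978 Ensembl gene identifiers and 39 IP libraries, 1 per rat. Per the labels and the study's methods, the authors trimmed reads with fastp 0.23.4, checked them with FastQC 0.12.1, and quantified transcripts with Salmon 1.10.2 (mRatBN7.2). They summed them per gene with tximport, ahead of DESeq2 1.42.1. The values are the authors' estimated counts, as whole numbers before any normalization, in which reads shared by similar genes are divided by a model. Input libraries are not used here.

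Here, genes were filtered with filterByExpr by group (minimum count 10) and scaled by TMM. They were tested with edgeR 4.0.16 (glmQLFit with robust dispersions, glmQLFTest; R 4.3.3, limma 3.58.1) with 2 surrogate variables (svaseq, sva 3.50.0). P-values were adjusted by Benjamini-Hochberg over all genes tested, and calls were made where the adjusted p was under 0.1. Tests of both cycle stages together had stage in the model. Intervals are 95%. Deviations and SDs are of log2(CPM + 0.1). All members were to be named, with every fold change given for D2 against D1, and the lowest p in each other comparison. Values of every library were to be given for genes called in both treatments and for the 4 with the lowest adjusted p in a ketamine or cycle comparison. Sequences were to be given for the 4 with the lowest p in saline. The members and lists were chosen with earlier results of these data known. Alternatives were other numbers of surrogate variables, DESeq2 1.42.0, its size factors, other filters and thresholds, a single model, blocks of 8 libraries with consecutive numbers, and every library omitted in turn. The fits were tested on simulated data. Library depth was 2396517 to 43224256 counts, of which Mrps17 had 0 to 117 and Acads 17 to 186. Coordinates and lengths for the files' build were not at hand here, so lengths were not used.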

Additional observations from a re-analysis of the deposited data

Results flagged for a closer look

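In 15 of 224 sets of 4 or 5 libraries, 1 library stood apart from the rest of its group for a member by Dixon's criterion, which chance meets in about 1 of 20 sets. Library 1 (D1-Cre, proestrus, saline) did so for 3 genes, with Atp5mc3 at 412 CPM (next 352), Atp5pf at 116 (next 97.0) and Cox6a1 at 289 (next 254). Library 39 (D2-Cre, diestrus, saline), the shallowest, did so for 3, with Acads at 7.04 CPM (next 4.31), Timmdc1 at 36.9 (next 29.3) and Mrpl55 low at 19.0 (next 27.0). Library 11 (D1-Cre, diestrus, saline) was high for Sdhc at 150.5 CPM (next 133) and for Timmdc1 at 34.5 (next 30.1). Library 4 (D1-Cre, diestrus, ketamine) was high for Cox18 at 15.5 CPM (next 13.8) and Mrpl27 at 44.8 (next 37.5), and library 36 of the same group was low for Atp5po at 211 CPM (next 233). Library 21 (D2-Cre, proestrus, saline) was low for Atp5po at 183 CPM (next 209.6). Library 10 (D1-Cre, proestrus, ketamine) was high for Acads at 6.07 CPM (next 3.82), library 6 (D2-Cre, proestrus, ketamine) for Atp5pd at 263 CPM (next 219), and library 8 (D2-Cre, diestrus, ketamine) for Atp5me at 41.5 CPM (next 37.8).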

How the results depend on the processing

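Of 684 fold changes of single members refitted under another setting, 606 kept their direction and their side of the threshold, 26 lost the call, 17 gained one and 35 turned sign. With 1 library left out these were 1044, 46, 38 and 81 of 1209. For Mrps35 the call between cell types held in 7 of 8 other fits with saline (adjusted p = 0.103 in the single model) and 8 of 8 with ketamine. The labels name no pairs and no library number is shared between groups, so libraries were not paired. Each run of 8 consecutive numbers holds at most 1 library of a group, and the labels do not say what these libraries share. A fit with these runs as blocks was made in place of surrogate variables.

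The count called with saline, 7, was 3 with at least 10 counts in every library (23.2% of all genes called), 1 in the single model of all libraries, Acads (13.1%), and 1 without libraries 33 and 39, a choice made after seeing the data. With 1 library left out it ran from 1 to 10 and was 1 without library 1 (8.96% of all genes called), 17 (11.4%) or 39 (13.9%), 3 without library 5 (17.7%) or 25 (19.6%), 4 without library 7 (22.0%) and 10 without library 29 (26.3%). The count with ketamine, 2, was 1 with no surrogate variable (12.5% of all genes called) or with blocks (14.5%), 4 in the single model (18.5%), and 1 to 3 with a library left out (14.9% to 20.4%), with 1 without library 28 (14.9%). In proestrus with saline the count, 0, was 1 with no surrogate variable (7.31%), with DESeq2 (6.76%) or with no filter (4.69%), 2 with 1 surrogate variable (10.3%) or blocks (7.02%), and 0 to 4 with a library left out (2.16% to 12.7%), the 4 and the 12.7% without library 5. In proestrus with ketamine it was 1 with at least 10 counts in every library (7.77%) and 0 to 1 with a library left out (3.6% to 8.14%). In diestrus with saline it was 1 with no surrogate variable (8.1%), DESeq2 (4.87%), no filter (4.4%) or without libraries 33 and 39 (6.9%), 2 with 1 surrogate variable (9.4%), at least 10 counts in every library (10.5%) or blocks (10.1%), and 0 to 1 with a library left out (2.04% to 6.9%). In diestrus with ketamine the count, 1, was 0 at an adjusted p under 0.05, with no surrogate variable (4.57%), no filter (7.94%) or blocks (5.02%), 2 with at least 10 counts in every library (15.2%) or the single model (12.3%), and 0 to 1 with a library left out (8.58% to 15.8%). The cause of these differences was not tested.

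Fold changes with saline turned sign in the single model for Acads (0.47), Atp5mc3 (0.0093), Atp5pd (0.026), Cox6a1 (0.054), Mrps14 (0.041), Ndufv3 (0.017), Timmdc1 (0.037) and Tomm70 (-0.030). With at least 10 counts in every library they did for Acads (0.11), Mrps14 (0.020), Ndufv3 (0.013) and Timmdc1 (0.0076), and without libraries 33 and 39 for Acads (0.017), Cox6a1 (0.012), Mrpl1 (0.018), Mrps14 (0.012) and Ndufv3 (0.0047). Mrps7 was at -0.0031 with no surrogate variable, -0.0081 with 1 and -0.0015 with blocks. With ketamine, Atp5f1b was at 0.017 with no surrogate variable, 0.0063 with 1, 0.026 in the single model and 0.018 with blocks. Ndufb4 was at 0.0023 with no surrogate variable, 0.011 in the single model and 0.0064 with blocks, and Tomm70 at 0.022, 0.036 and 0.012 with none, 1 and blocks. Tomm40l was at -0.00051 with none, Mrps14 at -0.0039 with 1, and with at least 10 counts in every library Atp5mc3 was at -0.0044, Mrps14 at -0.012 and Mrps18b at -0.0099.

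With 1 library left out, the saline fold change ran from -0.32 to 0.18 for Acads, -0.012 to 0.048 for Atp5me, -0.062 to 0.012 for Cox6a1, -0.081 to 0.035 for Mrpl1, -0.029 to 0.045 for Mrpl27, -0.076 to 0.036 for Mrps14, -0.049 to 0.060 for Mrps7 and -0.034 to 0.018 for Ndufv3. With ketamine it ran from -0.021 to 0.0091 for Atp5f1b, -0.015 to 0.025 for Atp5mc3, -0.00078 to 0.038 for Coq5, -0.054 to 0.0090 for Cox18, -0.0089 to 0.058 for Mrpl27, -0.017 to 0.025 for Mrps14, -0.31 to 0.044 for Mrps17, -0.023 to 0.030 for Mrps18b, -0.026 to 0.0089 for Ndufb4, -0.0063 to 0.045 for Timmdc1, -0.0011 to 0.060 for Tomm40l and -0.036 to 0.058 for Tomm70. Interactions were not refitted with a library left out. No scaling moved the median of all genes by over 0.1.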
